A study of Homo sapiens with 2 samples.

Results

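Chromosome 19 carries the densest collection of zinc finger genes in the human genome, and the positions of LDB1 peaks at these genes were examined. Members were the protein-coding genes of chromosome 19 in GENCODE release 44 whose symbol is ZNF, a number and at most 1 final letter. There were 246 of them among 20033 protein-coding genes, beside 1230 other protein-coding genes of chromosome 19 and 262 genes of the same symbol pattern on other chromosomes. The study profiled NB4 cells, an established line from acute promyelocytic leukemia, by CUT&Tag, in which an antibody directs a transposase to the chromatin around its target. One library was made with an LDB1 antibody and is labelled as LDB1 overexpression, and 1 was made with IgG and is labelled as untreated, so that antibody and treatment changed together. The deposited list held 11046 peaks from the LDB1 library, and the IgG library was not analysed here. With 1 library and 1 cell line there was no replicate, so no p-value is given, and each 95% interval covers counting error only.

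Most of these genes encode proteins with tandem zinc fingers of the C2H2 type, each a short loop of protein that reads a few bases of DNA, and the fingers usually lie together in the last coding exon. Many also carry a KRAB domain, which recruits the corepressor TRIM28 and with it histone methylation, and many bind transposable elements. The family grew by repeated local duplication, which left long rows of related genes. LDB1 does not bind DNA itself. It joins LIM-domain proteins such as LMO2, and in blood cells it is known from complexes with TAL1 and GATA factors that sit on a CTG half-site placed a short distance before a GATA site.

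Of the 36 peaks at these genes, 6 held such a composite element in the central 200 bp. Of these, 5 are printed below with 30 bases on either side, from hg38, 5′ to 3′ on the strand given, with the CTG and the GATA motif in capitals, because they show the best-described LDB1 element inside zinc finger gene loci.
ZNF627, chr19:11560525-11560600, + strand: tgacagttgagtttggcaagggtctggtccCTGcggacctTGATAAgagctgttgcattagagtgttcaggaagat
ZNF627, chr19:11565051-11565126, + strand: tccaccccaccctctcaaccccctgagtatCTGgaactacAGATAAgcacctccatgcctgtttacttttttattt
ZNF564, chr19:12544508-12544584, - strand: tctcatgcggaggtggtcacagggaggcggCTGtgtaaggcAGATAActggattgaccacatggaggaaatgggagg
ZNF83, chr19:52627094-52627170, + strand: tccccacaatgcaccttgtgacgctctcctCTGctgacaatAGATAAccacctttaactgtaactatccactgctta
ZNF28 and ZNF468, chr19:52836070-52836145, + strand: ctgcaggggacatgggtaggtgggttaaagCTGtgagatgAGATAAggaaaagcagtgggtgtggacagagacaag
The spacer between the CTG and the GATA motif was 8 bases at ZNF564 and ZNF83 and 7 bases at the others. AGATAA was the GATA motif in 4 of these 5, and TGATAA in 1 of the ZNF627 elements. The ZNF564 and ZNF83 elements lie in intron 1 of the canonical transcript. The ZNF627 elements and the element shared by ZNF28 and ZNF468 lie inside the annotated ZNF627 and ZNF28 genes but upstream of the start of their canonical transcripts. The peak with the first ZNF627 element also lies within 3 kb of ELOF1, and the ZNF564 peak within 3 kb of other protein-coding genes.

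The first question was whether zinc finger genes of chromosome 19 hold LDB1 peaks as often as their neighbours. A peak in the gene or within 3 kb of it was found at 25 of the 246 zinc finger genes (10.2%, Wilson interval 6.98 to 14.6), against 19.7% of all protein-coding genes and 27.8% of the other protein-coding genes of chromosome 19. The zinc finger genes were the longer ones, with a median of 25.9 kb against 13.9 kb, which gives a peak more room. Weighted over 10 classes of gene length to the lengths of the zinc finger genes, the share of the other genes was 30.5% (SE 1.58), and the difference was -20.3 percentage points (-24.7 to -14.9). The share was lower for zinc finger genes in 10 of 10 length classes. Among the longest genes, from 51.5 to 489 kb, 7 of 33 zinc finger genes and 45 of 115 other genes had a peak, and the intervals of those shares overlapped. In the class from 12.3 to 15.9 kb, 0 of 21 zinc finger genes and 31 of 127 other genes had one.

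**Figure D1:**
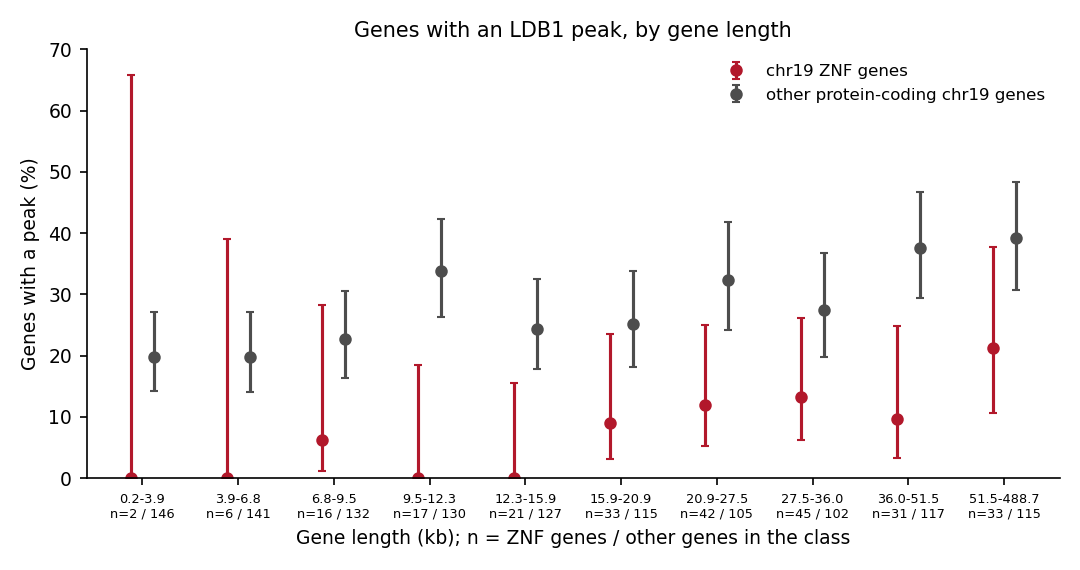
Share of genes with an LDB1 peak in the gene or within 3 kb (%, vertical axis) in 10 classes of gene length (kb, horizontal axis), with zinc finger genes of chromosome 19 in red, other protein-coding genes of chromosome 19 in grey and 95% Wilson intervals as bars. The red point lies under the grey point in each class, and the red intervals are wide where few zinc finger genes fall in a class.

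Base composition moved with this difference. Zinc finger genes had a median GC content of 43.6% against 54.0% for the other genes, and 207 of the 246 fell in the lowest of 4 classes of GC content with equal gene numbers, from 34.4 to 47.7%. Within that class 20 of the 207 zinc finger genes (9.66%, 6.34 to 14.5) and 23 of 162 other genes (14.2%, 9.65 to 20.4) had a peak, with overlapping intervals. With 5 classes of length crossed with 5 of GC content, chosen after seeing the data, the share of the other genes fell to 17.6% and the difference became -7.39 points (-14.1 to -0.0343). The part of base composition in the lower share of zinc finger genes was not tested.

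Peaks were also sparser per base. The zinc finger genes with their 3 kb margins covered 8.72 Mb and held 36 peaks, which was 4.13 per Mb (exact Poisson interval 2.89 to 5.71), and the other genes held 404 peaks in 29.3 Mb, or 13.8 per Mb (12.5 to 15.2). This territory made up 14.9% of the chromosome and held 6.44% of its 559 peaks. Bins of 1 kb below 45% GC made up 62.5% of zinc finger territory and 15.8% of the territory of the other genes. Weighted to the GC content of the zinc finger bins, the other genes held 5.63 peaks per Mb (SE 0.476) against 4.12 for the zinc finger genes, whose interval contained that value. In bins from 40 to 45% GC the densities were 3.71 and 3.57 per Mb, and in bins from 50 to 55% they were 7.08 and 13.7 per Mb.

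**Figure D2:**
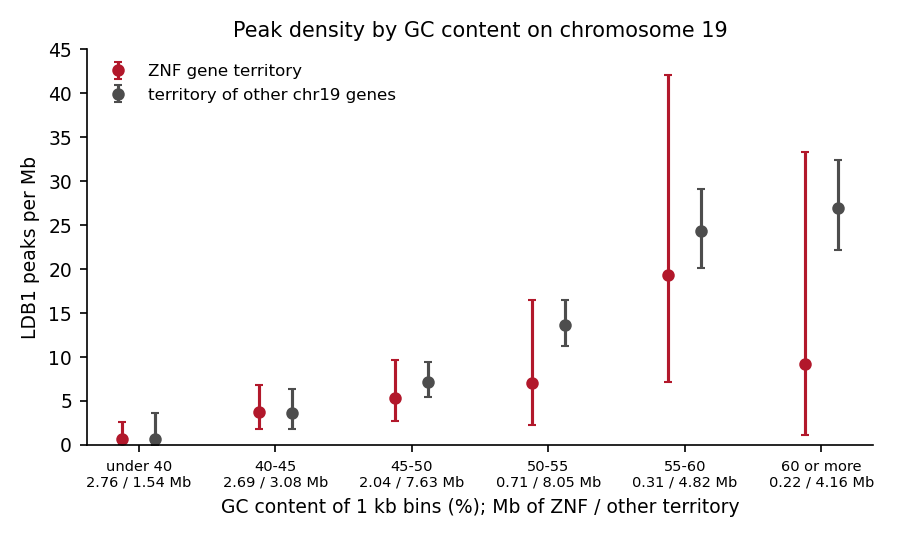
LDB1 peaks per Mb (vertical axis) in 1 kb bins of chromosome 19 grouped by GC content (%, horizontal axis), in zinc finger gene territory (red) and in the territory of other genes (grey), with exact Poisson 95% intervals as bars. Density rose with GC content in the grey series from 0.651 to 26.9 per Mb, and the red intervals overlap the grey ones in each class.

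The nearest peak lay a median of 137 kb from a zinc finger gene (quartiles 33.8 and 314 kb), compared with 22.2 kb for the other genes of chromosome 19 and 88.8 kb for ZNF genes elsewhere. ZNF genes on other chromosomes also had few peaks, with 37 of 262 (14.1%, 10.4 to 18.9). Weighted to their lengths the other genes of those chromosomes had 19.3%, a difference of -5.16 points (-8.91 to -0.383). Weighted to the lengths of the chromosome 19 genes, the ZNF genes elsewhere had 12.1%, and the difference of chromosome 19 from them was -1.92 points with an interval from -6.95 to 3.98 that included 0. Other genes that start within 250 kb of a zinc finger gene had a peak in 26.8% of cases and those farther away in 28.3%, with overlapping intervals. The limit of 3 kb left ZNF8 just inside, with a peak 2630 bp away, and ZNF350 just outside, at 3402 bp.

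**Figure D3:**
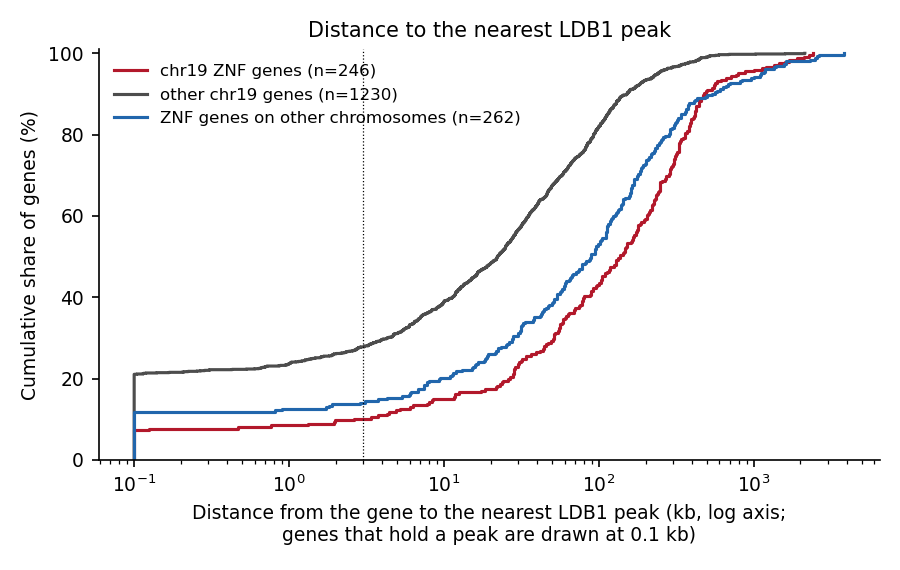
Cumulative share of genes (%, vertical axis) by distance to the nearest LDB1 peak (kb, log axis) for 246 zinc finger genes of chromosome 19, 1230 other genes of that chromosome and 262 ZNF genes elsewhere, with the 3 kb limit dotted. The grey curve of the other genes lies to the left, with a median of 22.2 kb, and the red curve of the zinc finger genes reaches 50% at 137 kb.

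Few peaks sat at a start site. Of the 246 genes, ZNF564, ZNF526 and ZNF468 had a peak midpoint within 1 kb of the canonical start (1.22%, 0.416 to 3.52), at -155, -160 and -269 bp, against 3.62% of all protein-coding genes. The other genes of chromosome 19 had 6.10%, or 5.90% weighted to the same lengths, and the difference was -4.68 points (-6.46 to -1.88). The ZNF526 peak also lies within 3 kb of DEDD2, which encodes a death effector domain protein, and the ZNF468 peak lies within 3 kb of ZNF28 and ZNF320. Without weighting for GC content, the density in promoter windows was 6.19 peaks per Mb at zinc finger genes (3 peaks, 1.28 to 18.1). At the others it was 32.4 per Mb (25.3 to 40.8). Within the rest of the gene body it was 3.87 (2.48 to 5.75) and 11.7 per Mb (10.3 to 13.3). When the start of any annotated transcript counted, 9 zinc finger genes (3.66%, 1.94 to 6.81) and 130 of the other genes of chromosome 19 (10.6%, 8.97 to 12.4) had a promoter peak.

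No peak overlapped a zinc finger exon. These exons, 1 per gene, covered 383 kb with a median of 1540.5 bp, held 99.7% of the fingers found in the translated canonical transcripts, and were the last coding exon in 242 of the 246 genes. At the density of the whole zinc finger territory 1.58 midpoints would fall in them, and a count of 0, taken to allow up to 3 midpoints, allows up to 7.83 per Mb, so that a shortage of peaks was not detectable. The last coding exons of other chromosome 19 genes covered 385 kb and held 3 midpoints, where 5.32 would fall at the density of their own territory. These exons were shorter, with a median of 156 bp, so that overlaps by any base cannot be set side by side. The peaks nearest to a zinc finger exon were 2370 bp away at ZNF526, 2726 bp at ZNF440 and 3012 bp at ZNF665. One peak had its midpoint in an exon of a canonical transcript, exon 2 of ZNF175, whose protein represses HIV transcription in macrophages. Genes with and without a peak had the same median of 12 fingers, and the 25 genes with a peak were longer, with a median of 32.3 kb against 24.2 kb.

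The 36 peaks were 229 to 1147 bp long with a median of 415 bp, against 493 bp for the other peaks of chromosome 19. Of the 36, 24 lay in the gene body outside exons of the canonical transcript and promoters, 8 in the 3 kb margins, 3 at promoters and 1 in an exon, and 12 lay also near a gene outside the family. The longest was at ZNF564, with 1147 bp in intron 1, and carried one of the composites above. ZNF526 followed with a peak of 1093 bp beyond its 3′ end that also lies near GSK3A, a kinase of glycogen and Wnt signalling. Among the other long ones, ZNF320 had 752 bp, ZNF611 736 bp and ZNF577 689 bp, the last also near FPR3, a formyl peptide receptor gene. ZNF627 had the most peaks, 5, from 292 to 1014 bp, all upstream of its canonical start, and the longest of these also lies near ACP5, which encodes tartrate-resistant acid phosphatase. ZNF83 had 4 peaks and ZNF320 had 3, while 15 genes had 1 each. Outside the promoter window lay, among others, the peak of ZNF431 at -1002 bp from the canonical start, those of ZNF850 and ZNF175 at 1027 and 1182 bp in intron 1, and that of ZNF556 at -1502 bp. ZNF846 had 1 peak of 255 bp, inside the gene and upstream of its canonical start. ZNF57 and ZNF653 had their single peak in intron 1 as well, of 262 and 401 bp, and ZNF507 had one of 230 bp in intron 5, 28429 bp from its start. A peak of 260 bp in intron 2 of ZNF841 also lies in the annotated ZNF432 gene, and one of 429 bp lies in ZNF665 and upstream of ZNF347. ZNF584 had the shortest peak, 229 bp, and ZNF8 one of 244 bp beyond its 3′ end. The longest members without a peak were ZNF536 (489 kb), ZNF675 (162 kb), ZNF98 (141 kb), ZNF420 (123 kb) and ZNF254 (96.6 kb), and the peak nearest to ZNF254 was 2406 kb away.

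**Figure D4:**
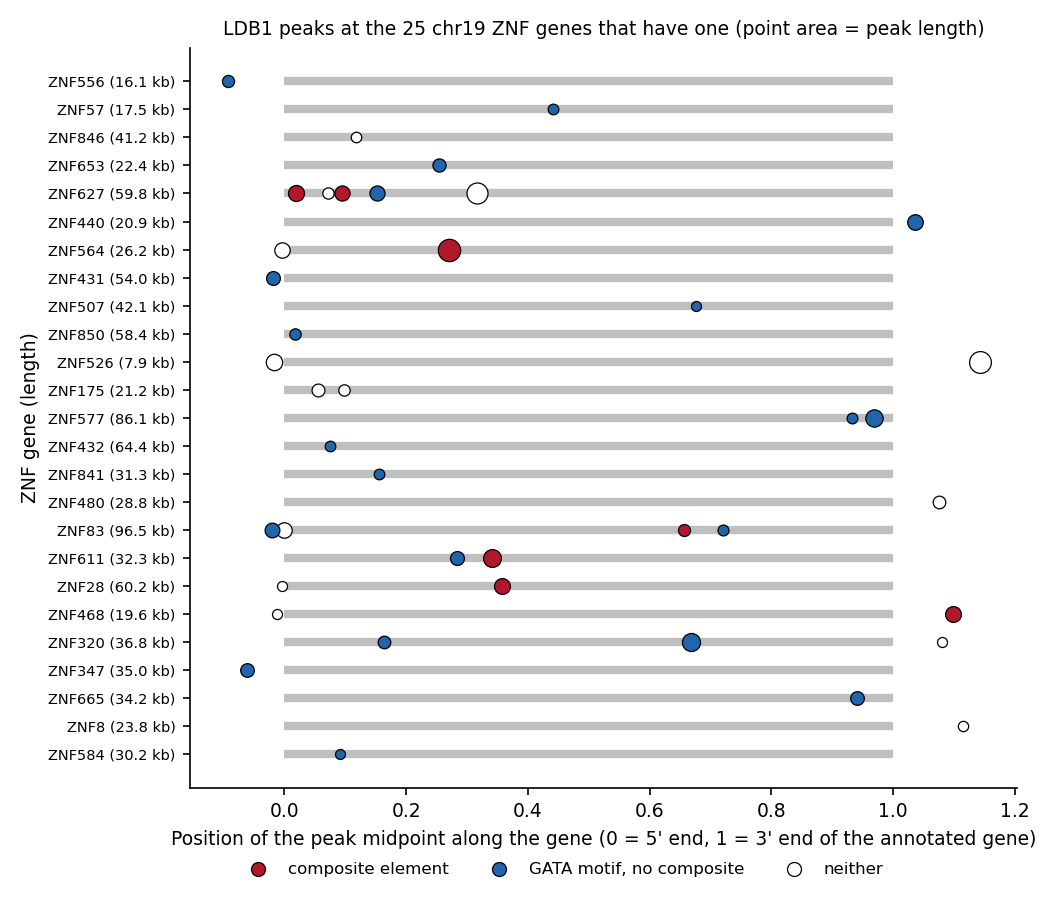
Midpoints of the 36 LDB1 peaks along the 25 zinc finger genes that have one, as a fraction of the annotated gene from its 5′ end (0) to its 3′ end (1) on the horizontal axis. Point area stands for peak length, red marks a composite element, blue a GATA motif without one and white neither, and a peak near several members is drawn at each.

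Peaks were unevenly spread along the chromosome. Members whose starts lay within 250 kb of each other formed 12 rows of at least 5 genes, which held 230 members. The row from ZNF175 to ZNF331 (chr19:51571283-53580269) had 12 of its 39 members with a peak (30.8%, 18.6 to 46.4), with 17 of the 36 peaks at members. Of the genes outside the family in that row, 7 of 15 had a peak, beside 27.8% of all other genes of chromosome 19. The whole interval, genes outside the family and spaces between genes included, held 33 peaks at 16.4 per Mb. Chromosome 19 as a whole had 9.57 per Mb, and the territory of the other genes 13.8 per Mb. The short row from ZNF554 to ZNF77 had 2 of 5 (40%, 11.8 to 76.9), ZNF556 and ZNF57. In the row from ZNF175 to ZNF331 the members with a peak were ZNF175, ZNF577, ZNF432, ZNF841, ZNF480, ZNF83, ZNF611, ZNF28, ZNF468, ZNF320, ZNF347 and ZNF665. In the row from ZNF653 to ZNF791 (chr19:11483427-12640098), 4 of 25 had one, namely ZNF653, ZNF627, ZNF440 and ZNF564. The row from ZNF264 to ZNF446 had 2 of 43, ZNF8 and ZNF584. The pericentromeric row from ZNF737 to ZNF254 had 1 of 29, ZNF431. No peak was found at the 23 members from ZNF575 to ZNF180 (0%, up to 14.3), where 2 of 14 genes outside the family had one. That interval includes the 10.2% of all members. In all, 5 rows with 52 members had no peak at a member. Without the row from ZNF175 to ZNF331, chosen after seeing the data, 13 of 207 members (6.28%) had a peak.

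GATA motifs were frequent in the peaks at zinc finger genes. GATA with A or T before it and A or G after it, on either strand of the central 200 bp, occurred in 24 of 36 peaks (66.7%, 50.3 to 79.8) and in 17 of 72 windows (23.6%, 15.3 to 34.6) centred 1 kb to either side, of which 2 touched a peak. The other peaks of chromosome 19 had 40.3% (36.2 to 44.6) and all peaks 47.1%. The windows at zinc finger genes were lower in GC content, with a median of 49.3% against 56.5% for the other chromosome 19 peaks, and the part of that in the motif share was not tested. Among windows of 45 to 55% GC, 16 of 22 at zinc finger genes (72.7%, 51.8 to 86.8) and 53.4% of 6021 peaks of the genome had the motif. In the central 100 bp the share was 30.6% (18.0 to 46.9) at zinc finger genes, 8.33% in their flanks and 28.2% in all peaks, and the interval at zinc finger genes included that last share. With the 26 peaks whose central 31 bases occur once in hg38, 15 held the motif in 200 bp (57.7%, 38.9 to 74.5), and that interval included the shares of such peaks elsewhere on chromosome 19 (40.3%) and in the genome (48.1%). Several of the 36 peaks are also related in sequence to each other, as described further on, and are not independent.

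The composite, CTG followed after 7 or 8 bases by one of those GATA motifs, occurred in 6 of 36 peaks (16.7%, 7.87 to 31.9) and in 0 of the 72 flanking windows, with 9.37% for the other chromosome 19 peaks and 11.2% for all peaks. RUNX motifs (TGTGGT) occurred in 25%, AP-1 motifs (TGANTCA) in 16.7% and E-boxes of the form CAGNTG in 36.1%, each with an interval that included the share of the other chromosome 19 peaks. KLF motifs (CCNCNCCC) occurred in 27.8% (15.8 to 44), against 45.1% of the other chromosome 19 peaks and 32.0% of all peaks. The part of the lower GC content of the windows at zinc finger genes in this KLF share was not tested.

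**Figure D5:**
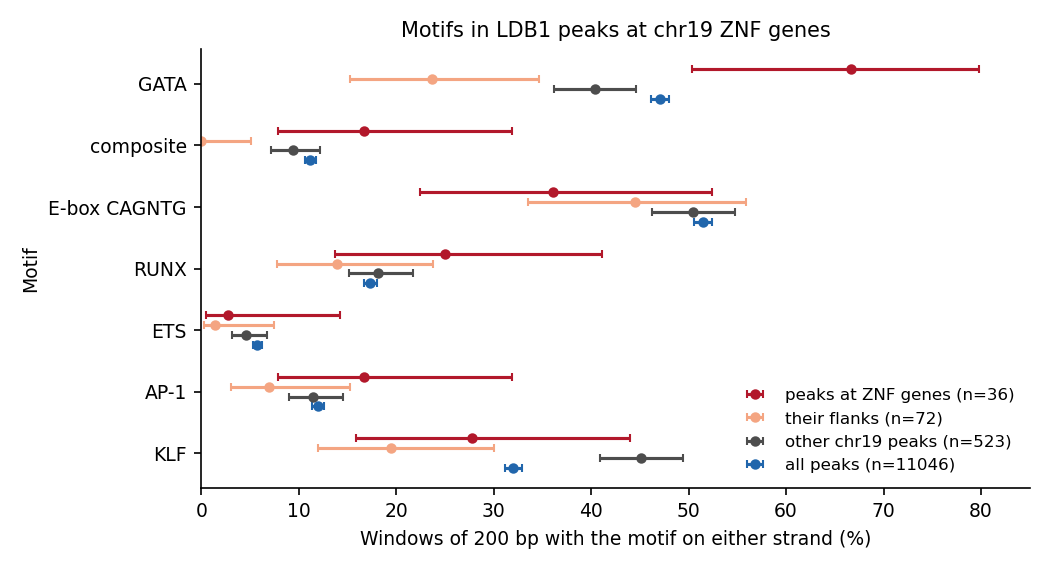
Share of 200 bp windows that hold each motif on either strand (%, horizontal axis), for the 36 peaks at zinc finger genes (red), their 72 flanking windows (orange), the 523 other peaks of chromosome 19 (grey) and all 11046 peaks (blue), with 95% Wilson intervals. The red GATA point, at 66.7%, lies to the right of the grey, blue and orange points, and the red composite interval overlaps the grey and blue points.

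Most motif occurrences in these genes lay outside peaks. Zinc finger territory held 17039 GATA motifs, 1953 per Mb, of which 59 (0.346%) lay in a peak, and the other genes held 1162 per Mb, with 1.50% in a peak. Peaks covered 0.196% of the bases of zinc finger territory and 0.889% of those of the other genes, so that these shares move with peak density. Of 608 composites in zinc finger territory 8 lay in a peak (1.32%, 0.668 to 2.57), those outside the central window included, against 92 of 1444 (6.37%, 5.22 to 7.75) at the other genes. RefSeq promoter sequences were matched for 216 of the 246 members and 951 of the other genes. GATA motifs were in 19.4% of the members' promoters, 16.5% of those of the other genes and 25.5% of all 27305 promoter sequences. ETS motifs (CCGGAAGT or GGAAGTG) were in 34.3% (28.3 to 40.8) of the members' promoters, against 13.1% of the others' and 13.1% of all. In the central 200 bp of the peaks, 1 of the 36 held one (2.78%, 0.492 to 14.2), against 5.73% of all peaks. Promoter sequences and peak windows are different stretches, so their shares cannot be set side by side. KLF motifs were in 57.4%, against 77.5% of the others' promoters and 55.1% of all.

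Related sequence was looked for among the peaks. Alignments of at least 200 bp joined 9 pairs of peaks, with 13 peaks in them. In 3 of the pairs a ZNF627 or ZNF440 peak aligned with the ZNF480 peak of another row, at 76 to 78.3% identity and in both ZNF627 pairs on opposite strands. In another, a ZNF577 peak and the peak at ZNF432 and ZNF841 aligned on opposite strands at 77.0%. A pair of ZNF83 peaks in intron 1 was 90.4% identical over 209 bp, and a matching stretch of each is printed because both hold the composite, in capitals with its spacer, although in the first it reaches beyond the central 200 bp.
ZNF83, chr19:52620889-52620986, + strand: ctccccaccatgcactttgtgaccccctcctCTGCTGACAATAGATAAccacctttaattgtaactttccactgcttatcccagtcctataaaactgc
ZNF83, chr19:52627093-52627190, + strand: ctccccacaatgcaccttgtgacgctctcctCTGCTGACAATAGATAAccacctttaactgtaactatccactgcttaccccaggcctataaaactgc
A ZNF83 peak and a ZNF611 peak, at chr19:52690335-52690885 and chr19:52725699-52726145, were 83.9% identical over 448 bp, and each was also related to the peak near ZNF468, at 84.3 and 84.8%.

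Repeated sequence limits how surely a read can be placed. For 10 of the 36 peaks the central 31 bases had at least 1 further exact copy in hg38 (27.8%, 15.8 to 44), against 10.7% of the other peaks of chromosome 19, and with 51 bases this held for 4 of the 36. Sampled positions gave 22.3% in zinc finger territory, 21.2% in the territory of the other genes and 17.5% in zinc finger exons. The centre of the ZNF320 peak at chr19:52891471-52891837 had 10 other copies on chromosome 19, of which 9 were at other members, including ZNF600, ZNF888, ZNF160 and ZNF845, and 0 were in a peak. The centre of the ZNF431 peak had 1 other copy, at ZNF430, outside any peak. The most repeated centre, of a ZNF627 peak of 292 bp, occurred 199 times in hg38. Only 16 of its other copies were on chromosome 19, of which 2 were at members. None of the other copies lay on chromosome 19 for ZNF57 (20 occurrences), ZNF83 (13), ZNF584, ZNF432 with ZNF841, and a second ZNF320 peak. How reads that fit several places were assigned is not given in the sources used here, and with peaks of repeated centre left out, 20 members (8.13%) had a peak.

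Other lists of genes were read beside the members. Of 22 other chromosome 19 genes with zinc finger symbols that the rule does not take, 5 had a peak (22.7%, 10.1 to 43.4). That interval held the shares of the other chromosome 19 genes and of all protein-coding genes. The 5 were ZBTB7A, ZNF816-ZNF321P, ZSCAN5B, ZSCAN5A and ZSCAN22. This list was taken by symbol alone, and some entries, such as ZNF559-ZNF177, join the symbols of members. Of 18 genes of the KRAB corepressor machinery, PPHLN1, DNMT1 and ATRX had one (16.7%, 5.84 to 39.2), a share near the 19.7% of all protein-coding genes. TRIM28, the corepressor itself, and SETDB1, its histone methyltransferase, were among those without. Of 8 granulocyte genes, 4 had a peak (CSF3R, CEBPE, AZU1 and CD33), and CTSG, PRTN3, MPO and ELANE had none (50%, 21.5 to 78.5). Of 8 red cell genes 6 had one, and of 4 T or B cell genes 0 did, against 19.7% of all protein-coding genes. A peak does not give a gene's expression, so these lists do not check the labelled cell type.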

How the data were processed

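NB4 cells were profiled by CUT&Tag in 2 libraries, 1 for LDB1 and 1 for IgG. Per the labels, the submitters used Bowtie2 2.4.4, MACS3 3.0 and hg38. For each LDB1 peak the authors deposited a first base, a last base and a size in bp, with neither score nor summit column, so the midpoint stood for the summit. Depth is unknown, and whether IgG served as control in peak calling, and how duplicate or repeatedly placed reads were treated, is not given in the sources used here. A peak list made without those steps can hold more repeated sequence.

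Genes came from GENCODE 44. A gene had a peak when one overlapped its body or lay within 3 kb. Shares have Wilson and densities exact Poisson 95% intervals. Other genes were weighted to the members' numbers in 10 length classes, and the interval of a difference joined both errors. Zinc fingers were counted in translated canonical transcripts. Copies were exact matches on both strands. Peaks were aligned with BLAST 2.17.0 (word size 11, E-value limit 1e-05). Python 3.11.15 with pandas 2.3.3, SciPy 1.17.1 and pysam 0.24.0 was used, and the calculations were tested on simulated data. RefSeq promoters came from the GRCh38 table.

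Named genes were members with a promoter peak, a peak on the zinc finger exon, a composite, one of the 10 longest peaks or at least 3 peaks, and the 5 longest without a peak. Other members with a peak, and genes of rows, copies, lists and the 3 kb limit, were named in addition, after their values were seen. Members and lists were chosen with earlier results of these data known. Alternatives were other windows, longer peaks, unrepeated centres, other classes and other gene sets. The sequence of 1 composite and 1 pair of related peaks is not reported here.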

Additional observations from a re-analysis of the deposited data

How the results depend on the processing

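Of 45 alternatives over 8 results, 31 stayed within the interval of the reported value and 14 did not. Shares and densities cannot fall below 0, so only the difference between zinc finger genes and other genes could change direction. That difference was below 0 in 13 of 13 alternatives. With 10 kb on either side of a gene the share of zinc finger genes with a peak was 15.0%, that of the other genes at their lengths 40.3% and the difference -25.2 points. With the gene body alone the other genes had 24.9%. With the 5523 longest peaks the shares were 4.07 and 19.7% and the density 1.72 peaks per Mb. With 5 length by 5 GC classes, added after seeing the data, the other genes had 17.6% and the difference was -7.39 points, where 84 members lay in classes with under 20 other genes. Without the row from ZNF175 to ZNF331, also added then, 6.28% of members had a peak. With the start of any transcript 3.66% had a promoter peak. The share of peaks with a GATA motif was 30.6% in 100 bp and 80.6% over the whole peak, which differ in the length searched. With 51 central bases 11.1% were repeated, since a longer sequence recurs less. The cause of the other shifts was not tested. No paired analysis was possible because neither group had a second library. With 1 library, intervals cover counting error only, and 36 peaks at 25 genes limit each share.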
